A study of Mus musculus with 9 samples.

Results

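Motile cilia cover part of the epithelium that lines the oviduct, and 40 genes of their structure were followed here across sexual maturation and the estrous cycle of the mouse. The genes were chosen by symbol, for dynein arms, radial spokes, the central pair, tektins and other parts of the axoneme. No cut on their measured values was used, but earlier results of these data were known when they were chosen. All 40 had at least 1 probe set that the array's annotation assigns to their symbol alone, among 19937 genes measured in this way. They had 45 such probe sets in total, and a gene with several is given by its brightest one, judged by the average of the 9 arrays.

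The RNA came from whole oviducts of CD1 mice, an outbred strain, and was hybridised to Affymetrix gene arrays. Immature females were taken on day 21 (immature, n = 3). Mature females were taken in estrus (n = 3) or in diestrus (n = 3), and the labels give no age for them. Every sample was a pool of the tissue of 5 animals, no animal received hormones, and no genetic change is recorded for any group. A value therefore describes a pool, and the spread between replicates is the spread between pools. In RNA of a whole organ, fewer ciliated cells and less transcript per ciliated cell cannot be told apart.

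A motile cilium is a bundle of microtubule doublets around a central pair of microtubules. Outer and inner dynein arms on the doublets slide neighbouring doublets past each other, while radial spokes, the central pair and the links between doublets turn sliding into a regular bend. Tektins and other proteins inside the doublets stiffen them, and the dynein arms are put together in the cytoplasm by assembly factors before they enter the cilium. In the oviduct, multiciliated cells stand among secretory cells and help to move the egg and embryo. FOXJ1 and factors of the RFX family switch on many of these genes in multiciliated cells. Estrus is the phase around ovulation, and diestrus the phase in which progesterone dominates.

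Promoter windows of these genes were searched for the letters that RFX factors are known to bind. Whether these letters go with the shift between arrays described below was not tested. RefSeq's promoter table (GRCm38.p6) held 38 windows for 34 of the 40 genes, each of 250 bases before and 50 bases after an annotated transcript start. No window was in the table for Cfap53, Dnaaf1, Rsph1, Rsph4a, Tppp3 and Wdr78. The core GTTGCC, read on both strands, was in 20 of the 38 windows (52.6%), which belonged to 19 genes, and in 12.5% of the 32851 windows of all genes. The stretches below show the core, in capitals, for the 4 genes with 1 window, a match on the strand of the gene before the start, and no annotated transcript of that gene starting further upstream.

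Enkur (chr2:21205372-21205421, minus strand): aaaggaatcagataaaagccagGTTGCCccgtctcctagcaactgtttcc
Dynlrb2 (chr8:116504942-116504991, plus strand): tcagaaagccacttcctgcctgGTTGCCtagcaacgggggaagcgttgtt
Sntn (chr14:13670788-13670837, plus strand): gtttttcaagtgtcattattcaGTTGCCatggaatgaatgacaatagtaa
Ccdc153 (chr9:44240503-44240552, plus strand): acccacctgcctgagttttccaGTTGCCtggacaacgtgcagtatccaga

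The core ended 28 bases before the start in Enkur, 45 bases before it in Dynlrb2, 60 in Sntn and 146 in Ccdc153. In Dynlrb2 and Ccdc153 the core is followed by an inverted partner, a second, less exact copy on the other strand. Such a partner, defined as at least 4 of the 6 letters of GGCAAC after a gap of 0 to 3 bases, was in 16 of the 38 windows (42.1%) and in 3.49% of all windows, and this pattern was searched for only after the stretches had been seen. The longer form GTTNCCATG, which contains the core where N is G, was in 4 windows of the genes (10.5%; Cfap52, Dnah5, Sntn and Zmynd10) and in 1.93% of all windows. The full palindromic X-box with a free centre, GTTNCC and GGNAAC with 2 bases between them, was in 1 window, that of Pifo (2.63%), and in 0.451% of all windows. A core of forkhead factors, TGTTTAC, was in 3 windows (7.89%; Ak7, Cfap43 and Sntn) and in 3.65% of all windows, and TGTTTGT was in 0 of 38 and in 6.61% of all windows. The CCAAT box, a general promoter element, was in 36.8% of the windows of the genes and in 37.4% of all windows. These are matches of letters and not shown binding sites.

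On the arrays, the values of the cilia genes stood mostly in the upper part of the intensity range. Values are log2 intensities after RMA, and the median of all probe sets on an array lay between 8.85 and 8.90. Of the 40 genes, 38 were above that median on all 9 arrays. The exceptions were Drc1, above it on 7 arrays, and Spag16, above it on 2. Intensities of different probe sets depend on the probes and are not compared here as amounts of transcript.

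The largest pattern among the 40 genes was a shift that they shared from array to array, within the groups as well as between them. Set against each gene's own mean over the 9 arrays, the mean of the 40 genes was -0.09, 0.06 and 0.28 in immature samples 1, 2 and 3. It was -0.03, 0.05 and -0.16 in estrus samples 1, 2 and 3, and -0.09, 0.08 and -0.10 in diestrus samples 1, 2 and 3. Immature 3 was above the gene's own mean in all 40 genes and was the highest of the 9 arrays in 32 of them. Estrus 3 was the lowest array in 18 genes and immature 1 in 10. Inside the groups, immature 3 was the highest of its 3 arrays in 38 genes, estrus 2 in 34 and diestrus 2 in 37. Immature 3 thus stands apart for these genes, so many of the counts, medians and differences below are also given without it. Leaving out immature 1 instead, the lowest of its group in 37 genes, moved the medians against immature further from 0. That is given below for the 40 genes together and not by role.

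**Figure D1:**
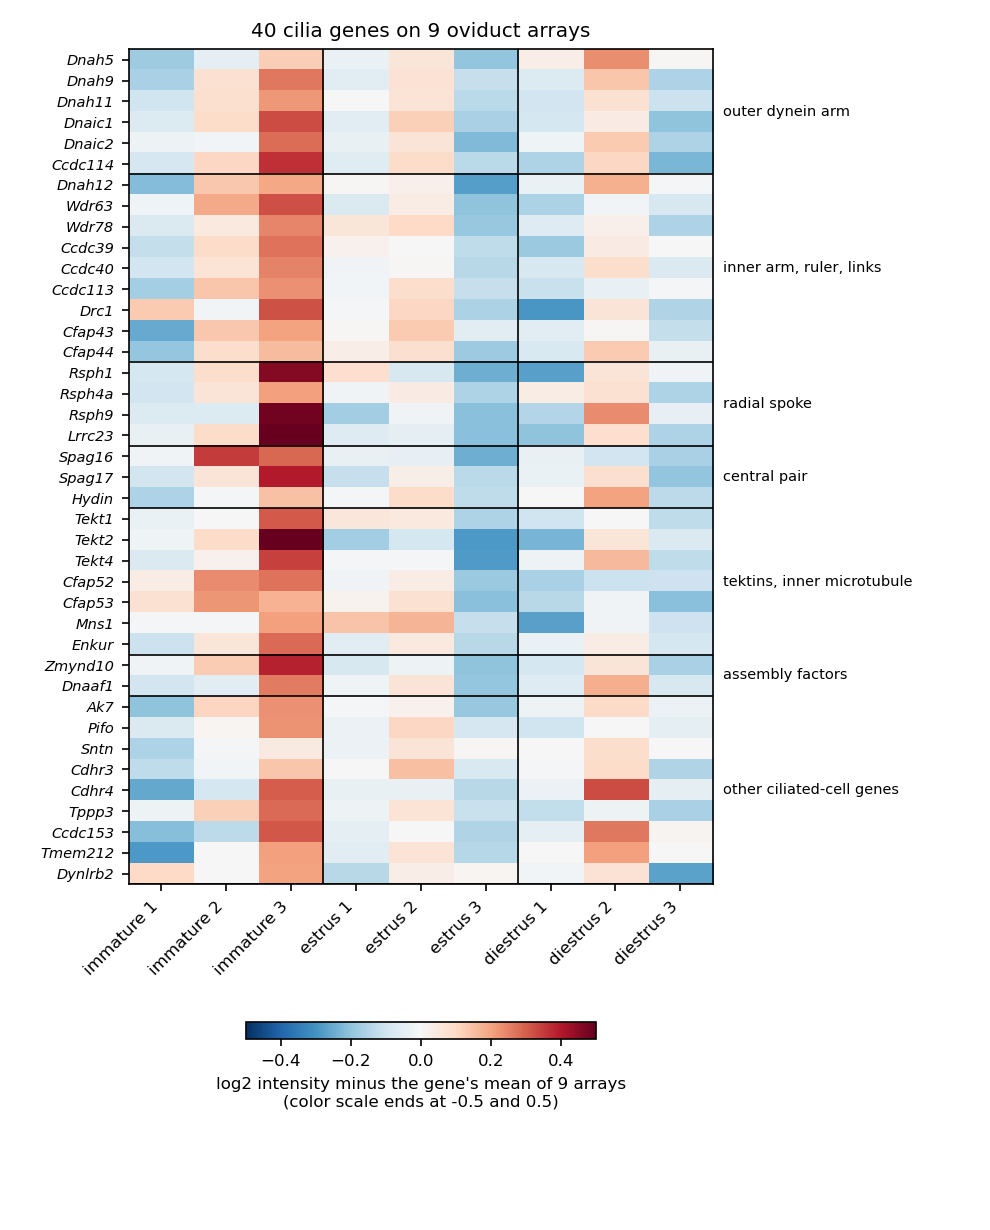
Color shows the log2 intensity of each of the 40 cilia genes (rows, by role) on each of the 9 arrays (columns), minus the mean of that gene over the arrays; the color scale ends at -0.5 and 0.5. The column of immature 3 is above the row mean in all 40 genes, and the column of estrus 3 is below it in 38.

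The spread of these genes inside the groups was mostly shared between them. The SD within groups, pooled over the 3 groups, had a median of 0.14 over the 40 genes, and 39 of them were above the median of all genes (0.094). After the mean of the 40 genes on each array had been subtracted, the median SD was 0.059, and 7 of the 40 were above 0.094. The correlation of a gene with the mean of the other 39, over the 9 arrays, had a median of 0.89 and exceeded 0.9 in 18 genes. It was 0.99 for Ccdc40, a part of the molecular ruler that spaces the dynein arms, 0.98 for Dnah11, an outer arm heavy chain, and 0.97 for Enkur, a protein inside the doublets. The lowest correlations were 0.48 for Sntn, a protein of the ciliary tip, 0.57 for Dynlrb2, a light chain of cytoplasmic and axonemal dyneins, and 0.66 for Dnah5, another outer arm heavy chain. These values include differences between the groups. With group means removed they were 0.86 for Sntn, 0.44 for Dynlrb2 and 0.98 for Dnah5, so Sntn and Dnah5 did follow the shift inside the groups. The arrays share their samples and normalization across all of these genes, so the correlations describe the 9 arrays and carry no test.

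None of the 40 genes passed the test in any comparison of the groups. A gene was called where limma's moderated test, fitted over all 28214 probe sets, gave a Benjamini-Hochberg adjusted p under 0.05. From immature to estrus, 0 of 40 were called, where 0.0851% of all probe sets were, and 6 of 40 had an unadjusted p under 0.05, against 6.52% of all probe sets. From immature to diestrus, 0 of 40 were called against 1.0% of all probe sets, and 6 had an unadjusted p under 0.05 against 13.4%. From estrus to diestrus, 0 were called against 0.159%, and 0 had an unadjusted p under 0.05 against 9.33%. For both mature stages together against immature, 0 were called against 0.432%, and 9 had an unadjusted p under 0.05 against 10%. The counts of unadjusted p moved with single arrays. Without immature 3 they were 1, 4 and 3 of 40 in estrus, in diestrus and in both mature stages against immature (4.19%, 10.2% and 6.61% of all probe sets), and without immature 1 they were 16, 16 and 18 (6.42%, 10.7% and 8.21%). Over the 9 arrays left out in turn they ranged from 1 to 16, 3 to 16 and 3 to 18, and from 0 to 1 between the mature stages, with 0 genes called each time. The smallest adjusted p among the 40 genes was 0.54 for estrus against immature (Spag16), 0.12 for diestrus against immature (Cfap52), 0.61 for diestrus against estrus (Mns1) and 0.17 for both mature stages against immature (Cfap52). Without immature 1 it was 0.19 in estrus, 0.098 in diestrus and 0.091 in both mature stages against immature (limma). Without immature 3 it was 0.32 in diestrus and 0.58 in both mature stages against immature (limma).

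The differences that were measured lay mostly on the lower side in mature oviducts. The median log2 difference of the 40 genes was -0.12 from immature to estrus and -0.11 from immature to diestrus, where the medians of all genes were 0.0023 and -0.0003. The fitted difference was below 0 in 37 and 33 of the 40 genes, against 48.8% and 50.1% of all genes. All genes include many dim probe sets, and brighter ones lay further to the lower side. A filter on dim probe sets left 14559 of them. Among the genes whose chosen probe set was left, 62.2% and 63.7% were below 0, with medians of -0.03 and -0.045. Of the 39 cilia genes left, 36 and 32 were below 0, with medians of -0.12 and -0.11. The 2 comparisons share the immature samples. From estrus to diestrus the median was 0.01, with 17 of 40 genes below 0, against a median of -0.0073 and 53.8% below 0 over all genes. Without immature 3 the medians were -0.03 in estrus and -0.02 in diestrus, with 24 and 23 of the 40 genes below 0. Without immature 1 they were -0.20 in each, with 40 and 38 of the 40 genes below 0. The median of the 40 genes on an array, set against the gene means, was 0.08 ± 0.18 (SD, n = 3) in immature, -0.04 ± 0.11 (SD, n = 3) in estrus and -0.03 ± 0.10 (SD, n = 3) in diestrus samples. The groups therefore differed by less than the SD between immature pools.

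The intervals show what size of change the 9 arrays leave possible. From immature to estrus, the 95% interval of the difference lay within 1.5-fold in either direction for 37 of 40 genes, and from immature to diestrus for 38. Without immature 3 it did so for all 40 in both comparisons. From estrus to diestrus it did so for all 40, with bounds from -0.42 to 0.49 on the log2 scale. Without immature 1 the intervals were not counted, and the fitted differences from immature reached -0.59 in estrus and -0.49 in diestrus. Weighting the arrays by their fit, which gave estrus 3 a weight of 8.16, did change the calls. With weights, 4 of 40 genes were called lower in estrus than in immature, against 3.63% of all probe sets, 0 in diestrus against 4.57%, 3 higher in diestrus than in estrus against 11.8%, and 1 lower in both mature stages against 2.05%. The widest interval of the unweighted fit belonged to Tekt2, which reached -0.83 in estrus and -0.73 in diestrus against immature.

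**Figure D2:**
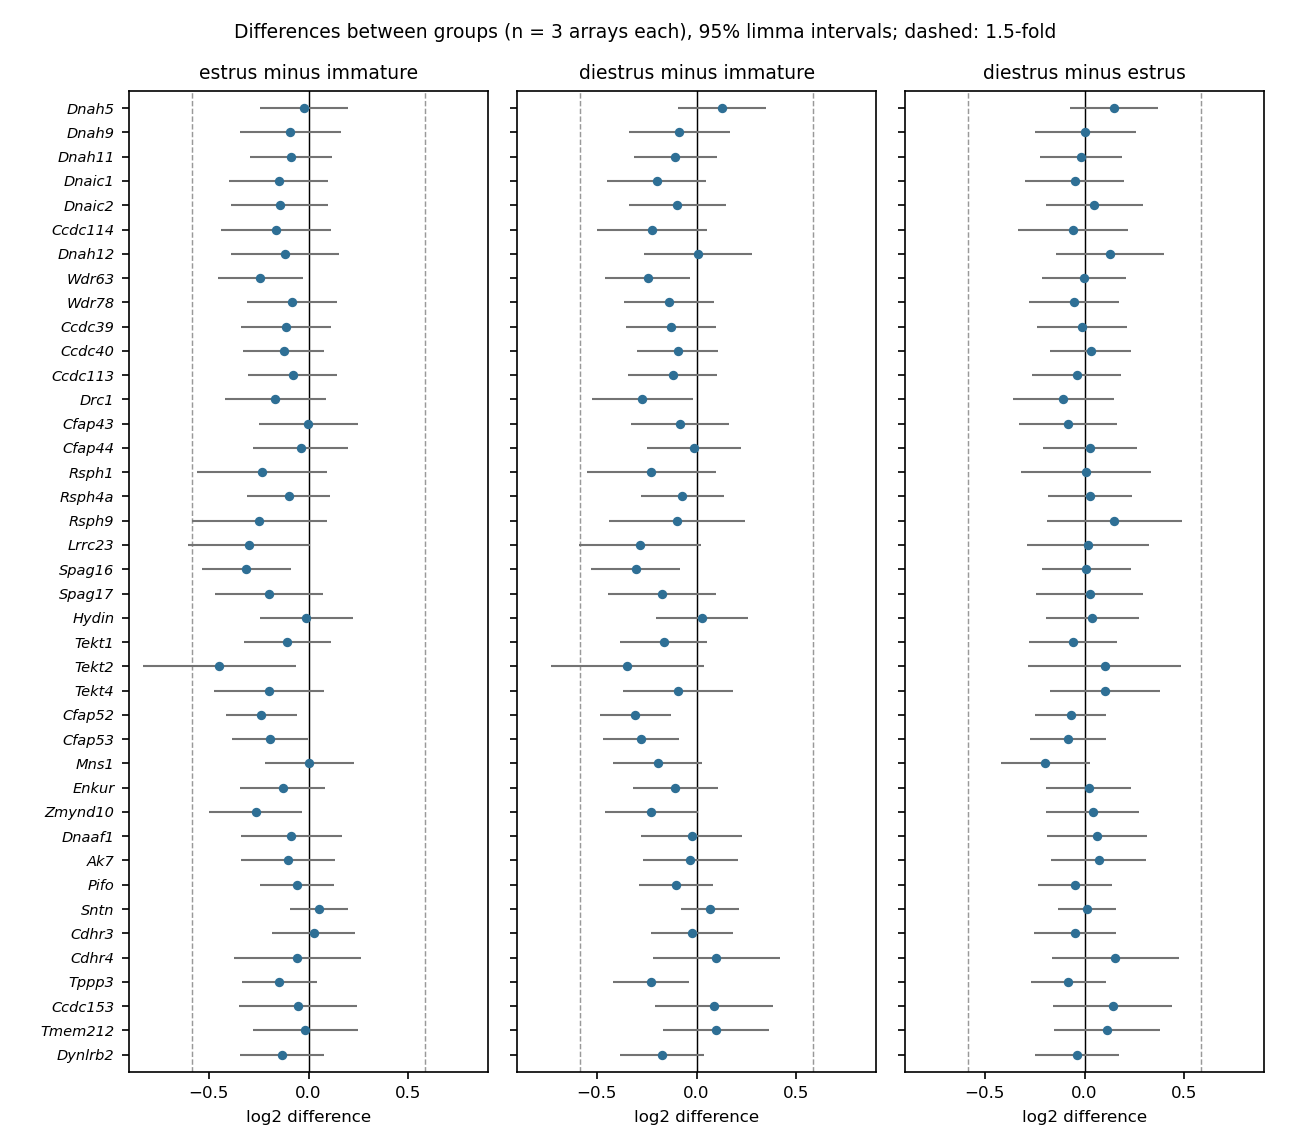
Points are fitted log2 differences of the 40 cilia genes in 3 comparisons of groups of 3 arrays, lines are 95% limma intervals, and dashed lines mark 1.5-fold. From estrus to diestrus all 40 intervals lie between -0.42 and 0.49, inside the dashed lines.

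Genes of the outer dynein arm, the motor that gives most of the force, were below immature levels in 6 of 6 genes in estrus and in 5 of 6 in diestrus, with medians of -0.12 and -0.10. None was called, and 0 of 6 had an unadjusted p under 0.05 in either comparison. Without immature 3 the medians were -0.03 and -0.01. Dnah5, a heavy chain, was the exception in direction. Dnah5 measured 12.03, 12.16 and 12.33 in immature, 12.18, 12.27 and 12.01 in estrus and 12.24, 12.44 and 12.21 in diestrus samples. The groups overlap, and the difference from estrus to diestrus was 0.15 ± 0.10 (SE; adjusted p = 0.78, limma). In diestrus the intermediate chains Dnaic1 and Dnaic2 differed from immature by -0.20 and -0.10, the docking protein Ccdc114 by -0.22, and the heavy chains Dnah9 and Dnah11 by -0.09 and -0.11.

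The 9 genes of the inner arms, the ruler and the links between doublets had medians of -0.12 in both mature stages, with 9 of 9 genes below immature in estrus and 8 of 9 in diestrus. Without immature 3 the medians were -0.02 and -0.03, with 5 and 6 of 9 below. Wdr63, an intermediate chain of an inner arm dynein, measured 11.52, 11.73 and 11.86 in immature, 11.46, 11.57 and 11.34 in estrus and 11.38, 11.53 and 11.46 in diestrus samples. Its difference from immature was -0.24 ± 0.09 (SE) in estrus and -0.25 ± 0.09 (SE) in diestrus, with adjusted p of 0.69 and 0.30 in limma, and -0.16 and -0.17 without immature 3. Drc1, a scaffold of the nexin links, measured 9.16, 9.02 and 9.35 in immature, 9.02, 9.13 and 8.87 in estrus and 8.74, 9.10 and 8.88 in diestrus samples. In both genes the highest array was immature 3, and immature 1 or 2 lay inside the range of a mature group.

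Other genes of this role varied as much inside the groups as between them. Dnah12, an inner arm heavy chain, measured 12.19, 12.54 and 12.60 in immature, 12.41, 12.43 and 12.12 in estrus and 12.37, 12.58 and 12.39 in diestrus samples. Cfap44, which tethers a dynein of the inner arms together with Cfap43, measured 12.40, 12.68 and 12.75, then 12.63, 12.67 and 12.41, and then 12.52, 12.72 and 12.55 in the same order. Ccdc113 measured 9.02, 9.33 and 9.42 in immature, 9.18, 9.28 and 9.07 in estrus and 9.08, 9.15 and 9.18 in diestrus samples. In all of these the immature arrays alone spanned the range of both mature groups or nearly so. Ccdc39, Ccdc40, Wdr78 and Cfap43 differed from immature by between -0.14 and -0.08 in diestrus.

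Of the radial spoke genes, Rsph9, Rsph1 and Lrrc23 had pooled SDs within groups of 0.22, 0.21 and 0.20, above the median of the 40 genes, and Rsph4a one of 0.13, below it. Rsph1, a protein of the spoke head, measured 10.52, 10.70 and 11.07 in immature, 10.69, 10.53 and 10.36 in estrus and 10.34, 10.68 and 10.59 in diestrus samples. Rsph9, another spoke head protein, measured 10.82, 10.82 and 11.37 in immature, 10.72, 10.87 and 10.68 in estrus and 10.74, 11.13 and 10.85 in diestrus samples. Lrrc23, a spoke protein, measured 10.39, 10.52 and 10.96 in immature, 10.37, 10.39 and 10.22 in estrus and 10.23, 10.52 and 10.28 in diestrus samples. In each gene immature 3 was the highest array, and without it the immature arrays still overlapped both mature groups in Rsph1 and Rsph9, and the diestrus group in Lrrc23. The 4 genes, Rsph4a included, had medians of -0.24 in estrus and -0.16 in diestrus against immature, with 0 of 4 at an unadjusted p under 0.05. Without immature 3 the medians were -0.07 and -0.04.

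Of the central pair genes, Spag16, a protein of the central apparatus, had the smallest p from immature to estrus. Spag16 measured 8.59, 8.96 and 8.89 in immature, 8.57, 8.57 and 8.37 in estrus and 8.57, 8.51 and 8.45 in diestrus samples. All 6 mature arrays were below all 3 immature ones, with immature 1 close above the mature range. The difference from immature was -0.31 ± 0.10 (SE) in estrus and -0.30 ± 0.10 (SE) in diestrus, with adjusted p of 0.54 and 0.21 in limma, and -0.27 and -0.26 without immature 3. Spag17, a neighbour of Spag16 in the central apparatus, differed from immature by -0.20 in estrus and -0.17 in diestrus, and Hydin, a large protein of a central pair projection, by -0.01 and 0.03.

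Among the tektins and the other proteins inside the doublets, Cfap52 had the smallest p from immature to diestrus of all 40 genes. Cfap52 measured 11.27, 11.47 and 11.51 in immature, 11.22, 11.28 and 11.05 in estrus and 11.07, 11.13 and 11.13 in diestrus samples. The 3 diestrus arrays were below all immature ones, and estrus 2 lay at the level of immature 1. The difference was -0.24 ± 0.08 (SE) in estrus and -0.31 ± 0.08 (SE) in diestrus, with adjusted p of 0.58 and 0.12 in limma. Without immature 3 the differences were -0.19 and -0.26.

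Cfap53, found in the same place in the doublet, measured 9.62, 9.76 and 9.72 in immature, 9.56, 9.62 and 9.33 in estrus and 9.40, 9.53 and 9.33 in diestrus samples. Its difference from immature to diestrus was -0.28 ± 0.08 (SE; adjusted p = 0.19, limma), or -0.27 without immature 3, and the arrays of those groups did not overlap. Mns1, which binds inside the doublet as well, measured 10.47, 10.47 and 10.68 in immature, 10.62, 10.65 and 10.36 in estrus and 10.20, 10.46 and 10.37 in diestrus samples. It had the smallest p of the 40 genes from estrus to diestrus, with a difference of -0.20 ± 0.10 (SE; adjusted p = 0.61, limma), and estrus 3 lay inside the diestrus range. Tekt2, a filament protein of the doublet wall, measured 9.31, 9.42 and 10.06 in immature, 9.16, 9.25 and 9.05 in estrus and 9.10, 9.39 and 9.26 in diestrus samples. Its difference in estrus was -0.45 ± 0.17 (SE; adjusted p = 0.67, limma), and -0.22 without immature 3. In diestrus it was -0.35 ± 0.17 (SE; adjusted p = 0.43, limma), and -0.12 without immature 3. Tekt1, Tekt4 and Enkur differed from immature by -0.17, -0.09 and -0.11 in diestrus, with no p passing the threshold. The 7 genes of this role had medians without immature 3 of -0.075 in estrus and -0.12 in diestrus.

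**Figure D3:**
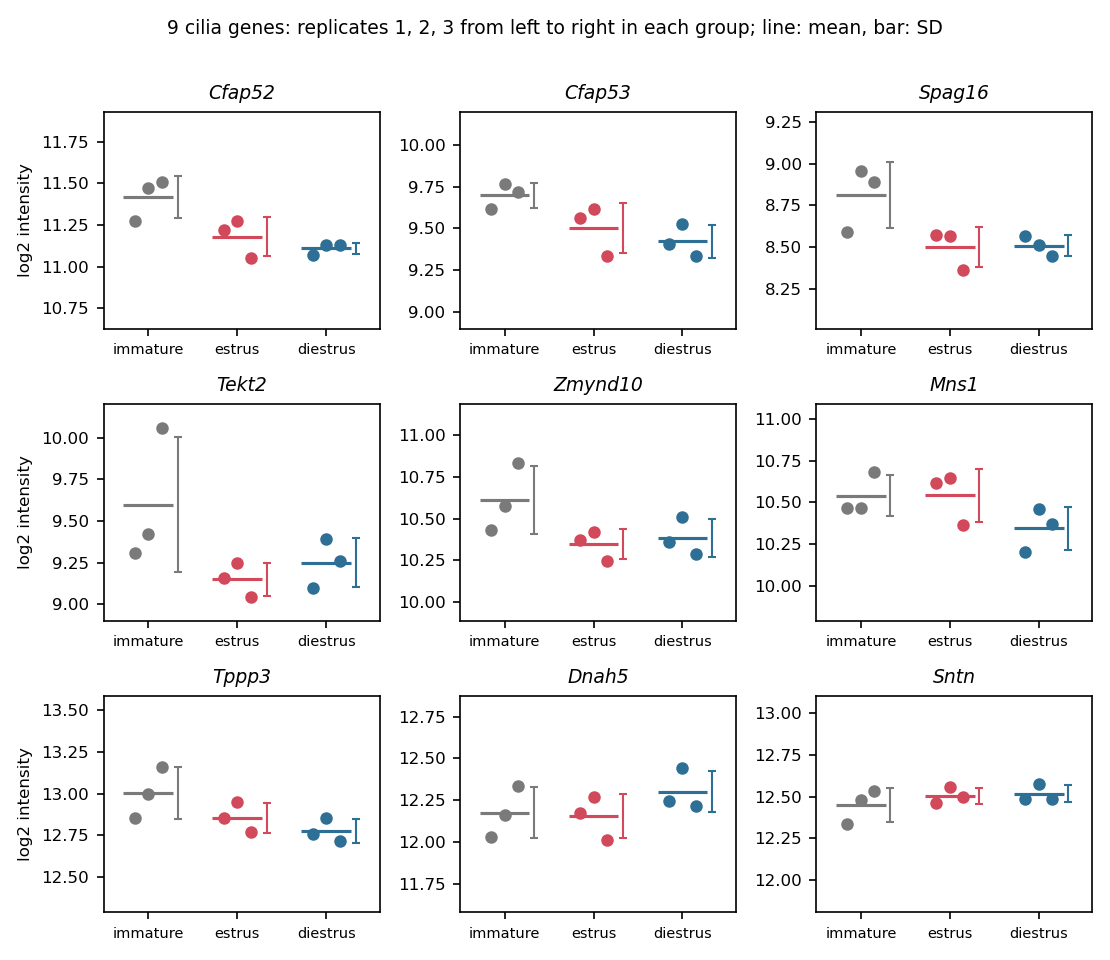
Points are log2 intensities of 9 cilia genes in immature, estrus and diestrus samples (replicates 1, 2 and 3 from left to right), horizontal lines are means and bars are SDs (n = 3); every panel spans the same log2 range. In Spag16 all mature arrays lie below the immature ones, while in Tekt2 and Zmynd10 immature 3 stands above every other array.

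The assembly factors Zmynd10 and Dnaaf1, which help to build dynein arms in the cytoplasm, were below immature in both mature stages. Zmynd10 measured 10.43, 10.57 and 10.83 in immature, 10.37, 10.42 and 10.25 in estrus and 10.36, 10.51 and 10.29 in diestrus samples. Its estrus arrays were all below the immature ones, with a difference of -0.27 ± 0.10 (SE; adjusted p = 0.69, limma), and of -0.16 without immature 3. Dnaaf1 differed by -0.09 in estrus and -0.03 in diestrus.

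The 9 genes with other roles in ciliated cells lay closest to no difference, with medians of -0.06 in estrus and -0.02 in diestrus against immature. Without immature 3 they were 0.09 and 0.06. Tppp3, a microtubule-binding protein, was the one with the smallest p. Tppp3 measured 12.85, 12.998 and 13.16 in immature, 12.85, 12.95 and 12.77 in estrus and 12.76, 12.85 and 12.72 in diestrus samples, and the difference in diestrus was -0.23 ± 0.08 (SE; adjusted p = 0.27, limma), and -0.15 without immature 3. Sntn measured 12.34, 12.48 and 12.53 in immature, 12.46, 12.56 and 12.50 in estrus and 12.49, 12.58 and 12.49 in diestrus samples. Sntn had the smallest SD within groups of the 40 genes, 0.07, and its groups overlap.

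Tmem212, Cdhr4 and Ccdc153 were among the few genes with a diestrus mean above the immature one. Tmem212, a membrane protein, measured 12.07, 12.36 and 12.56 in immature, 12.30, 12.42 and 12.21 in estrus and 12.36, 12.56 and 12.36 in diestrus samples. Cdhr4, a relative of the cadherins, measured 11.77, 11.93 and 12.32 in immature, 11.98, 11.98 and 11.88 in estrus and 11.99, 12.35 and 11.97 in diestrus samples. Ccdc153 measured 10.80, 10.89 and 11.32 in immature, 10.97, 11.02 and 10.86 in estrus and 10.97, 11.28 and 11.03 in diestrus samples. In all 3 genes immature 1 was the lowest array and immature 3 or diestrus 2 the highest, and the adjusted p from estrus to diestrus was 0.90 or more in limma. Ak7, an adenylate kinase of the cilium, differed from immature by -0.03 in diestrus, Pifo by -0.10, Cdhr3 by -0.02 and Dynlrb2 by -0.17.

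Across all roles, few genes had arrays that separated the groups completely. From immature to estrus 4 of the 40 genes were lower on every estrus array (Lrrc23, Spag16, Tekt2 and Zmynd10), where 7.99% of all genes were. From immature to diestrus 4 were lower on every diestrus array (Cfap52, Cfap53, Mns1 and Spag16), where 13.1% of all genes were. Spag16 alone was lower on all 6 mature arrays, which 3.88% of all genes were, and 0 of the 40 were higher on every array in estrus (2.62% of all genes), in diestrus (6.52%) or in both (0.978%). Between the mature stages 0 of 40 separated in either direction, where 5.43% of all genes were higher and 7.96% lower. These shares lie near or below the background of all genes.

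Once the shared shift was taken out, some of the genes had arrays that separated the groups. None was called, by a test whose misses are not read on this scale. For this description, made after the shared shift had been seen, the mean of the 40 genes on each array was subtracted from every value, which moved the median difference of all genes to 0.13 in estrus and 0.12 in diestrus against immature. On that scale Dnah5, Hydin, Sntn and Tmem212 were higher on all 6 mature arrays than on any immature array, where 1.45% of all genes were. Lrrc23, Tekt2, Wdr63 and Zmynd10 were lower on all 6, where 0.371% of all genes were. These shares are not a like background. The subtraction narrows the spread of the 40 genes, from a median SD of 0.14 to 0.059, and adds the shift to genes that do not carry it. It also centres the 40 genes, so that some of them come to lie higher and some lower. Dnah5 showed steps in size between the 3 groups, with -0.09, -0.11 and -0.15 in immature, -0.01, 0.02 and -0.04 in estrus and 0.12, 0.15 and 0.11 in diestrus samples, set against its own mean. Tmem212 measured -0.20, -0.06 and -0.07, then -0.03, 0.02 and 0.02, and then 0.09, 0.12 and 0.10 in the same order. Both genes thus took 3 separate ranges, in the order immature, estrus and diestrus. By limma on this scale 0 of the 40 genes were called in each comparison. The smallest adjusted p among them in limma was 0.67 in estrus, 0.72 in diestrus and 0.56 in both mature stages against immature. From estrus to diestrus it was 0.9996. Of all probe sets, 0.269%, 0.812%, 0.723% and 0.252% were called in these comparisons. The moderated test takes part of its spread from all probe sets, and the subtraction adds the shift to those that do not carry it. Misses of the 40 genes on this scale are therefore not read as a lack of separation.

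**Figure D4:**
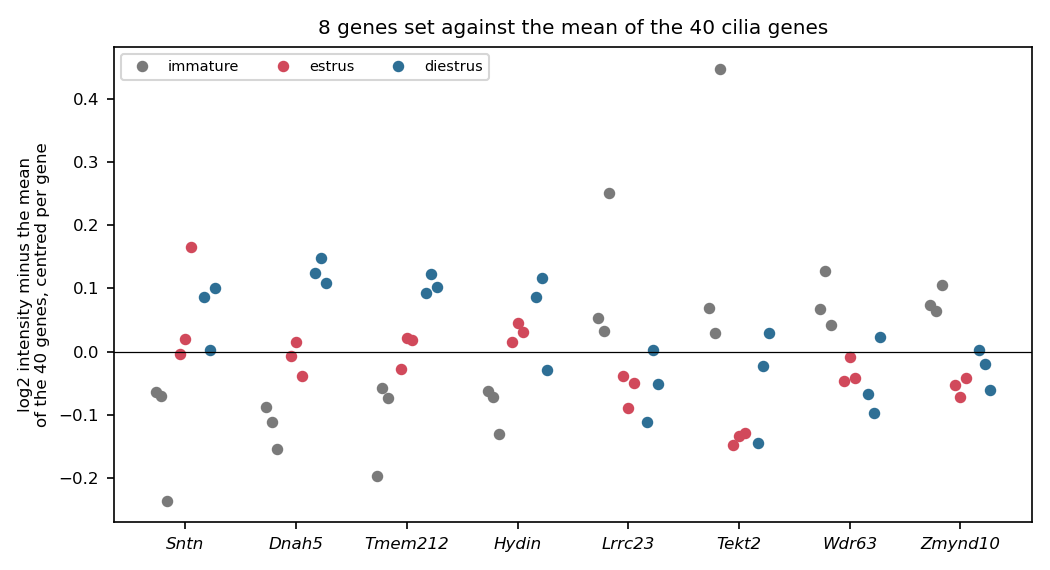
Points are log2 intensities of 8 cilia genes minus the mean of the 40 genes on the same array and centred per gene, for immature, estrus and diestrus samples; the genes were picked because their mature arrays do not overlap the immature ones on this scale. Dnah5 takes 3 separate ranges, from -0.15 to -0.09 in immature, -0.04 to 0.02 in estrus and 0.11 to 0.15 in diestrus samples. None of the 40 genes was called by limma on this scale. Its misses are not read here, since the test takes part of its spread from all probe sets.

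Genes with more than 1 probe set gave a view of the error of the probes. Cfap43 had 5 probe sets, and the other 4 correlated with the one used at 0.88 to 0.93 over the 9 arrays. Their differences from immature to estrus lay between -0.08 and 0.08, so their signs disagreed at sizes below the SE of 0.11. The other probe set of Dnah12 correlated with the one used at 0.80 and differed from immature by -0.11 in estrus, against -0.12 for the one used.

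Other genes of motile cilia had medians near those of the 40 genes. Of 63 further structural genes on a list, 57 were measured, and their medians against immature were -0.12 in estrus and -0.14 in diestrus, with 49 and 50 of 57 below 0. Without immature 3 they were -0.03 and -0.045, with 35 and 38 below 0. Of the 57, only Efhc2, which codes for a protein of the doublet, was called in these 2 comparisons. That is 1 of 57 in diestrus, against 1.0% of all probe sets, and 0 of 57 in estrus, against 0.0851%. Efhc2 measured 9.10, 9.28 and 9.29 in immature, 9.00, 8.93 and 8.77 in estrus and 8.81, 8.75 and 8.72 in diestrus samples, and fell by 0.46 ± 0.08 from immature to diestrus (SE; adjusted p = 0.030, limma). It was not called without immature 1, 2 or 3 or without diestrus 1 or 2, with adjusted p up to 0.12 in limma. Genes of intraflagellar transport, which carries cargo along the growing cilium, had medians of -0.14 in estrus and -0.15 in diestrus. In each comparison 28 of 29 were below 0 and 0 were called by limma, against 0.0851% and 1.0% of all probe sets. An unadjusted p under 0.05 was found in 4 and 11 of the 29, against 6.52% and 13.4% of all probe sets. Without immature 3 the medians were -0.07 and -0.09. The smallest p in that list belonged to Ift80 in estrus (-0.22, adjusted p = 0.55, limma) and to Ift20 in diestrus (-0.21, adjusted p = 0.084, limma), 2 subunits of the transport particle. Between the mature stages 0 genes of either list were called by limma, against 0.159% of all probe sets. An unadjusted p under 0.05 was found in 2 of 57 and 3 of 29, against 9.33% of all probe sets. The smallest p were those of Ccdc65, a protein of the nexin links (-0.27, adjusted p = 0.25, limma), and Ift20 (-0.14, adjusted p = 0.34, limma). On the single arrays, immature 3 was the highest for both lists.

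Some of the genes that make the centrioles from which cilia grow were lower in diestrus by far more than the 40 genes. Of 11 such genes, 5 were called lower from immature to diestrus and 1 from immature to estrus, against 1.0% and 0.0851% of all probe sets called. All 11 were below 0 in both comparisons. The other 6 (Ccdc78, Cenpj, Cep57, Cep63, Cep135 and Cep152) lay between -0.32 and -0.07 in diestrus and were not called. Deup1, a protein of the deuterosome on which multiciliated cells multiply centrioles, measured 10.64, 10.55 and 10.85 in immature, 10.47, 10.22 and 9.90 in estrus and 9.65, 9.57 and 9.60 in diestrus samples. Stil, a centriole assembly protein that dividing cells use too, measured 9.22, 9.13 and 9.49 in immature, 8.62, 8.56 and 8.39 in estrus and 8.06, 8.10 and 8.21 in diestrus samples. For both genes all 6 mature arrays lay below the immature ones. From immature to diestrus the log2 difference was -1.07 for Deup1 (adjusted p = 0.010, limma), -1.16 for Stil (0.0025), -1.04 for Plk4, the kinase that starts centriole copying (0.0066), -1.01 for Cdc20b (0.013) and -0.52 for Sass6 (0.026). From immature to estrus Stil fell by 0.75 (adjusted p = 0.037, limma). Without immature 3 the differences in diestrus were -0.99 for Deup1 (adjusted p = 0.050, just under the threshold), -1.05 for Stil (0.011), -1.07 for Plk4 (0.034) and -0.84 for Cdc20b (0.011), all called by limma, and that of Sass6 was -0.51 (0.10), not called. Sass6 was also not called without immature 1 or 2 or diestrus 1 or 2, and Deup1 and Cdc20b were not called without diestrus 2, with adjusted p of 0.052 and 0.053 in limma. The call of Stil in estrus was lost with 8 of the 9 arrays left out in turn, with adjusted p up to 0.18 in limma. Between estrus and diestrus 0 of the 11 were called by limma, against 0.159% of all probe sets. An unadjusted p under 0.05 was found in 5 of them, against 9.33%, and Plk4 had the smallest p (-0.53, adjusted p = 0.13, limma).

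The centriole genes were also set against the structural genes with all 9 arrays, on the scale relative to the mean of the 40 genes. On it 0.812% of all probe sets were called from immature to diestrus. The scale was added after the shared shift had been seen on these arrays, so its p values are descriptions and no separate support. The subtraction adds the shared shift to the spread of genes that do not carry it, so misses are not read on this scale, for the 40 genes or for others. From immature to diestrus the difference was -1.04 for Stil (adjusted p = 1.1e-05, limma), -0.95 for Deup1 (9.6e-05), -0.92 for Plk4 (0.00037) and -0.90 for Cdc20b (0.00015). Of the 13 factors of the ciliated cell fate, Ccno, which drives centriole amplification, fell by 0.84 (adjusted p = 0.0060, limma) and Mcidas, a coactivator of the fate, by 0.56 (0.015) from immature to diestrus. These were the only 2 called there, against 1.0% of all probe sets. In that comparison 12 of 13 were below 0, and 8 had an unadjusted p under 0.05, against 13.4% of all probe sets. Gmnc, not called, had means of 10.24 in immature and 9.58 in diestrus samples, with 9.15 on diestrus 3. Without immature 3 Ccno was at -0.80 (adjusted p = 0.034, limma) and Mcidas at -0.57 (0.068), and Mcidas was not called without immature 1 or 2 either. On the relative scale Ccno passed at an adjusted p of 0.0039 in limma. These lists were written with earlier results of the same arrays known, so their counts and p values are descriptions.

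Foxj1, the master factor of motile cilia, was not called in any comparison. It measured 11.40, 11.40 and 11.67 in immature, 11.37, 11.55 and 11.26 in estrus and 11.40, 11.40 and 10.98 in diestrus samples. The difference was -0.10 in estrus and -0.23 in diestrus, with adjusted p of 0.90 and 0.49 in limma, and -0.01 and -0.14 without immature 3. The groups overlap, and immature 3 is the highest array here too.

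**Figure D5:**
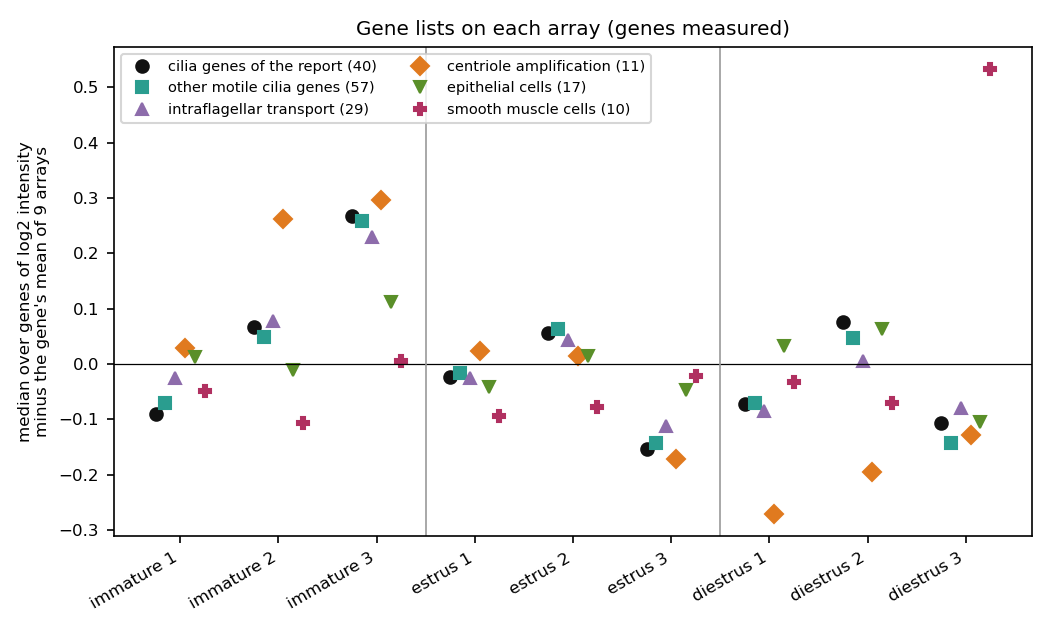
Points are medians over the genes of a list, on each of the 9 arrays, of log2 intensity minus the mean of that gene over the arrays; numbers in the legend are genes measured. The 40 cilia genes, the other motile cilia genes and intraflagellar transport lie close together on each array, the centriole genes are lowest on diestrus 1, and smooth muscle markers reach 0.53 on diestrus 3.

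Markers of other cells were followed on the same arrays, since each pool holds the whole organ. Of 18 epithelial markers 17 were measured, all above the array median on all 9 arrays, and the median of their deviations ranged from -0.01 to 0.11 in immature, -0.05 to 0.01 in estrus and -0.10 to 0.06 in diestrus samples. It was highest on immature 3 and lowest on diestrus 3. Epcam, an adhesion protein of epithelial cells, measured 11.68, 11.89 and 11.72 in immature, 11.76, 11.71 and 11.71 in estrus and 11.73, 11.72 and 11.62 in diestrus samples, with no call. Relative to the mean of the epithelial list, the median of the 40 cilia genes was -0.06 in estrus and -0.07 in diestrus against immature, where that of all genes was 0.06 and 0.04. The part of epithelial content in the shared shift was not tested beyond these values.

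Markers of muscle, connective tissue, ovary and fat differed between arrays, and the amount of a tissue and the expression in it cannot be told apart. The 10 smooth muscle markers, all measured, had a median deviation of 0.53 on diestrus 3, while the other 8 arrays lay between -0.11 and 0.01. The 8 fibroblast markers had 0.84 on diestrus 3 and -0.45 on diestrus 2, and ranged from -0.08 to 0.22 in immature and from -0.25 to -0.07 in estrus samples. Of 11 ovarian markers 9 were measured, with 0.84 on diestrus 2 and 0.55 on immature 2, and -0.43 to -0.22 in estrus samples. Star, which carries cholesterol into steroid synthesis, rose from immature to diestrus by 0.74 (adjusted p = 0.046, limma), a call lost with 8 of the 9 arrays left out in turn (adjusted p up to 0.16). Of 7 fat cell markers 6 were measured, with 0.60 on immature 1 and 0.26 on immature 2, against -0.29 to -0.02 on the mature arrays. The 6 secretory cell markers measured, of 7, stayed between -0.07 and 0.09 on all arrays. The 2 arrays with the lowest immature values of the cilia genes, immature 1 and 2, are those with the most signal of fat markers, and the part of this in the results was not tested. Immature 3, the array on which the cilia genes were highest, had smooth muscle, fibroblast, ovarian and fat marker medians of 0.01, -0.08, -0.42 and -0.10.

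Outside the lists, the genes whose pattern over the 9 arrays was most like the mean of the 40 genes were Haus4, Ldlrad1 and Rab36, each with a Pearson correlation of 0.98. Lca5, BC051019, Cfap54, Wdpcp, Armc4, Xylb and Erich2 followed at 0.97. Cfap54 and Armc4 are on the list of other motile cilia genes. A correlation over 0.9 was found in 0.709% of the 19897 other genes, in 33.3% of the 57 other motile cilia genes, in 18.2% of the 11 centriole genes, in 13.8% of the 29 intraflagellar transport genes, in 7.69% of the 13 fate factors and in 0 of the epithelial, secretory, muscle, fibroblast, ovarian and fat markers. These correlations were taken over arrays that share samples and normalization, and they describe the likeness of patterns on these 9 arrays.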

How the data were processed

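Per the submitters' processing notes, the authors made log2 values with RMA in Affymetrix Expression Console and deposited them for 28214 probe sets on 9 arrays; no version, genome build or scan date was found in these notes or labels. The log base is not written with the values, which range from 4.39 to 14.59, where RMA values on a log2 scale lie. The annotation of the platform named 21640 probe sets by 1 symbol. Precision is limited by how many arrays there are.

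One group-means model of all 9 arrays was fitted to every probe set, with no filter (limma 3.58.1 in R 4.3.3, moderated two-sided test, 6 residual and 3.6 prior degrees of freedom). Benjamini-Hochberg adjustment ran over all probe sets, with calls below 0.05. The fit was tested on simulated data. Python 3.11.15 with pandas 2.3.3 made the tables, and matplotlib 3.10.9 drew the figures.

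The genes, lists and tests were chosen with earlier results of these data known. Genes named with values on every array were, in each comparison of 2 groups, the 4 members with the smallest p, the 5 with the highest and the 3 with the lowest mean, and the 3 with the largest SD within groups. From other ciliary lists, up to 4 called genes or else the one with the smallest p were named, with Foxj1 and Epcam in any case; markers of other cells are given by list medians, with the called gene Star. Hydin, Wdr63, Lrrc23 and Sass6 were added after their values were seen. Alternatives covered normalization, filters, the fit's settings, probe set choice and leaving out each array.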

Additional observations from a re-analysis of the deposited data

How the results depend on the processing

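The count of called cilia genes was 0 in 76 of 79 other analyses of the 4 comparisons, which varied normalization, filters, fit settings, probe set choice and each array left out. The exceptions all came from array weights, which gave estrus 3 a weight of 8.16: 4 genes were called lower in estrus than in immature (Wdr63, Spag16, Cfap52 and Cfap53; 3.63% of all probe sets were called), 3 higher in diestrus than in estrus (Dnah5, Dnah12 and Tekt4; 11.8%) and 1 lower in both mature stages than in immature (Cfap52; 2.05%). Under array weights the median from estrus to diestrus was 0.14, and the cause was not tested. With 1 array left out at a time, counts stayed at 0, and the median of the 40 genes ranged from -0.20 to -0.03 in estrus and from -0.20 to -0.02 in diestrus against immature, from -0.04 to 0.05 between estrus and diestrus, and from -0.20 to -0.02 in both mature stages against immature. The values nearest 0 against immature were those without immature 3, and the lowest those without immature 1. From estrus to diestrus the median was -0.04 without estrus 3 or without diestrus 2, 0.05 without estrus 2 and 0.05 without diestrus 3. Without estrus 3 the median in estrus against immature was -0.06, and without diestrus 2 that in diestrus was -0.17. Quantile normalization run again gave -0.09 and -0.07 in estrus and diestrus, and cyclic loess -0.08 and -0.05. Whether the replicate numbers of the labels pair the samples cannot be settled from these values. Of 9 same-numbered pairs, 3 correlated over 0.1 (range -0.29 to 0.17), and pairs with different numbers ranged from -0.26 to 0.29. With the replicate block, 0 genes were called in each comparison, and the medians were -0.12, -0.11, 0.01 and -0.11. Of 1197 values of named genes under the alternatives, 65 changed sign, and 2 of these had exceeded their SE, both for Foxj1 from estrus to diestrus, -0.13 with all arrays, 0.07 with array weights and 0.01 without diestrus 3.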
